A study of Arabidopsis thaliana with 12 samples.

Results

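Plants turn light into chemical energy in the thylakoid membranes of the chloroplast. Pigment-binding antenna proteins (LHCB proteins around photosystem II, LHCA proteins around photosystem I) pass excitation to the photosystems, and electrons then move from water through photosystem II, the cytochrome b6f complex, plastocyanin, photosystem I and ferredoxin to NADP, while ATP synthase uses the proton gradient this builds. The chloroplast genome encodes the reaction-centre proteins, and the nuclear genome encodes the antennae and many smaller subunits, whose transcripts are among the most abundant in a green leaf and are known to be lowered during immune responses in Arabidopsis. The genes described here are 49 nuclear genes of Arabidopsis thaliana that encode antenna proteins, photosystem subunits, electron carriers and ATP synthase subunits. They were chosen by name and function, with earlier results of these data known, and are 49 of the 27313 genes in the files. Their counts beside shares of all genes are therefore a description and no test of the set. Other genes of these kinds, such as Lhca5, Lhca6, PSBP-2, FD1, ATPC2 and PDE334, are not among them. Those are counted with the further light-reaction genes at the end. The 49 comprise 4 LHCA genes, 9 genes of the major photosystem II antenna (LHCB1, LHCB2 and LHCB3), 5 of its minor antenna (LHCB4, LHCB5 and LHCB6), 11 of photosystem II (PSB), 12 of photosystem I (PSA), 6 of electron transport and 2 of ATP synthase. All 49 passed the filter on low values and were among the 18149 genes tested.

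RNA was sequenced from rosette leaves of 4 groups with 3 libraries each: sid2 plants given latrunculin B, sid2 plants given DMSO, wild-type (WT, accession Col-0) plants given latrunculin B, and WT plants given DMSO. Latrunculin B is a toxin that binds actin monomers and so takes apart actin filaments, and DMSO is its usual solvent. SID2 is ICS1, the isochorismate synthase that plants need to make most of the defence hormone salicylic acid during immune responses; the labels do not name the sid2 allele. Plants of every group were 4 weeks old and came from 22 °C and days of 10 h light and 14 h darkness, and 3 mature leaves per plant were syringe-infiltrated with 1 µM latrunculin B (latB) or 0.01% DMSO and taken 24 h later. Whether the latB solution held DMSO too is not in the labels. Whether the libraries of a group stem from different plants is not in the labels, so the p-values measure the spread between these libraries, which may be technical.

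The libraries held 14506962 to 22449387 estimated reads, and a single one of the light-reaction genes had at least 1667 (LHCB4.3) and at most 745649 (LHCB1.3) in a library. ICS1 itself had 299 to 385 CPM (reads scaled to the same library total) in the 6 sid2-labelled libraries and 21.6 to 161 CPM in the 6 WT libraries, so its transcript level alone does not check the labels. PR1, a marker of salicylic acid, had 0 to 7.59 CPM in the sid2-labelled libraries and 79.4 to 5267 CPM in the WT libraries, which separates them. Root markers were at 0 in all libraries and flower markers summed to at most 0.164 CPM. The 3 WT latB libraries stood apart from the other 9 on the first principal component of all genes, which held 51.7% of the variance. Replicate 3 of the sid2 DMSO group stood apart from the other 2 of its group on PC3 (11.4 against -43.01 and -54.72).

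Per-gene values below are CPM scaled by the TMM method (trimmed mean of M values), which suits a comparison of libraries. Levels of different genes are compared as TPM, a transcript's share of all transcripts, which takes the length of the transcript into account. Fold changes, their standard errors (SE) and adjusted p-values come from edgeR's quasi-likelihood test with Benjamini-Hochberg adjustment over all genes tested, and a gene is said to have risen or fallen only where the adjusted p was below 0.05.

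In WT DMSO leaves the 49 genes together made up 29.6% ± 1.3 of all TPM (SD, n = 3). LHCB1.3 (AT1G29930), a gene of the major antenna, had the highest level in those leaves at 29585 ± 4034 TPM (SD, n = 3). It was followed by 2 other copies of the same protein, LHCB1.5 (AT2G34420) at 17079 ± 1474 TPM and LHCB1.1 (AT1G29920) at 13481 ± 1341 TPM. The next levels were those of the photosystem I subunit gene PSAO (12045 ± 416 TPM), the photosystem II subunit gene PSBR (11284 ± 264 TPM) and the major antenna gene LHCB3 (10823 ± 538 TPM). PSBR and LHCB3 differed by less than the SD of LHCB3, whereas LHCB1.3 and LHCB1.5 were separated by more than both SDs. At the low end were PETE1 (532 ± 75.2 TPM), the less abundant plastocyanin gene, LFNR2 (403 ± 26.6 TPM), a ferredoxin-NADP reductase gene, and LHCB4.3 (192 ± 49.9 TPM), the least abundant minor antenna gene. These 3 levels followed one another by more than the SDs of the neighbours.

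Several members exist as near-identical copies, and the reads of such copies were divided among them by an estimation model. The coding sequences of LHCB1.1, LHCB1.2 and LHCB1.3, which lie side by side on chromosome 1 (chr1:10472280-10479114 in assembly TAIR10.1), were 95.6 to 96.4% identical. LHCB1.4 (chr2:14524607-14525918, plus strand) and LHCB1.5 (chr2:14522524-14523568, minus strand) are divergent neighbours on chromosome 2, 91.4% identical to each other. LHCB2.1 and LHCB2.2 were 96.6% identical, while LHCB2.3 was 84.4 to 85.5% identical to them. The LHCB4.1 and LHCB4.2 coding sequences were 81.1% identical, and LHCB4.3 was 65.7 and 66.9% identical to them. Of the other pairs, identity lay between 72.9% (plastocyanin, PETE1 and PETE2) and 87% (PSAH1 and PSAH2). Values of the LHCB1 copies, and of LHCB2.1 and LHCB2.2, are therefore uncertain between copies.

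The sequences below are the 300 bases that lie just before the annotated start of 5 genes in assembly TAIR10.1 (RefSeq annotation), written in the direction of transcription. LHCB2.3 and LHCB4.3 are shown because they had the largest and the smallest log2 response to latB in WT of all 49 genes. LHCB1.5, LHCB1.1 and LHCB2.1 are examples of copies whose share of their family's reads did not overlap between WT latB and WT DMSO libraries. The shares of LHCB1.3, LHCB4.1 and LHCB4.2 did not overlap either, and their windows are not shown. Capitals mark letters that match, on either strand, CACGTG (the G-box), GATAAG (the I-box), AAAATATCT (the evening element), AAAAATCT (a CCA1 binding site), CCAATC or TTGACC (a W-box). The windows are chr3:10255606-10255905 on the plus strand for LHCB2.3, chr2:16745328-16745627 on the plus strand for LHCB4.3, chr2:14523569-14523868 on the minus strand for LHCB1.5, chr1:10475970-10476269 on the minus strand for LHCB1.1 and chr2:1824481-1824780 on the minus strand for LHCB2.1.
LHCB2.3: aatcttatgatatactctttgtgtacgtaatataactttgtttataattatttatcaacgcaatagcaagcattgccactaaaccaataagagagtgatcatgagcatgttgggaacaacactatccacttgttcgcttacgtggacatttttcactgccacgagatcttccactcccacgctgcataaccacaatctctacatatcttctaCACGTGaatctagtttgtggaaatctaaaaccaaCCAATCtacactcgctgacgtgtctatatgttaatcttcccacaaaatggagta
LHCB4.3: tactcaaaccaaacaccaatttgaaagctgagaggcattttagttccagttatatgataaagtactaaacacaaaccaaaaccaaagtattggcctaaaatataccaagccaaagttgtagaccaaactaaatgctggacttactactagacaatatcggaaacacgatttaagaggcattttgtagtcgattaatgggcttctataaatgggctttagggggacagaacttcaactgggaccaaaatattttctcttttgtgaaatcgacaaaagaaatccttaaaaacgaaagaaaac
LHCB1.5: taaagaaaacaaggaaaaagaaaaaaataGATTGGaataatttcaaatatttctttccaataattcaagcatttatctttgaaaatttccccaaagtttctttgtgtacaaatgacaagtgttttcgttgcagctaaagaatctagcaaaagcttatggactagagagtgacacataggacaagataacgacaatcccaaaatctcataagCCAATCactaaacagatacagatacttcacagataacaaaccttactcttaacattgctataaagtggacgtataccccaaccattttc
LHCB1.1: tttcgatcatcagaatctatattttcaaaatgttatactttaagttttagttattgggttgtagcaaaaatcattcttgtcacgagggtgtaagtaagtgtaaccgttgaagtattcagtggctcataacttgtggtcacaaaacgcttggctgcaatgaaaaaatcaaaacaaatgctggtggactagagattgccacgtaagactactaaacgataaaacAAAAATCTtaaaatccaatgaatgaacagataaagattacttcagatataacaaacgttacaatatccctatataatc
LHCB2.1: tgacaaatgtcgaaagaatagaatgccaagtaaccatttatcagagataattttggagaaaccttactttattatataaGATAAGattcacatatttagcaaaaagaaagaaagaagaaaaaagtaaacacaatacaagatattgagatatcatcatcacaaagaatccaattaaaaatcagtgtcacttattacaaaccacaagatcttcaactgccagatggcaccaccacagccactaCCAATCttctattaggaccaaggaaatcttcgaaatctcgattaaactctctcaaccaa

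The LHCB2.3 window holds a G-box 83 bases and a CCAATC 49 bases before the gene start, and the LHCB4.3 window holds none of the 6 motifs. LHCB2.1 carries a CCAATC 54 bases and an I-box 216 bases before its start. LHCB1.1 carries a CCA1 binding site 71 bases before its start, and LHCB1.5 carries 2 copies of CCAATC. Across the 49 genes, CCAATC was present in 17 windows (34.7%), against 12.2% of the windows of all 27443 nuclear protein-coding genes. It was in the windows of 3 of 4 LHCA and 5 of 9 major LHCB genes, and in that of 1 of 12 photosystem I genes. The G-box, a site of light-regulated transcription factors, was in 11 windows (22.4%, against 7.09% of all), and the I-box in 12 (24.5%, against 14.5%). The CCA1 binding site was in 5 (10.2%, against 7.94%) and the evening element in 1 (2.04%, against 2.79%). TTGACC, the W-box form searched here and a site of WRKY factors, was in 7 (14.3%, against 14%). Other forms of the W-box were not searched. Searches of both strands allow no mismatch, none of the 6 motifs contains another, and these matches are a description of letters in a window, with no test.

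The first question is what latB did to these genes in WT leaves. Of the 49 genes, 48 fell in WT latB leaves and none rose, where 22.7% of all genes tested fell and 22.1% rose. The median log2 fold change of the 49 was -1.07, a 2.09-fold lower level, against -0.01 over all genes tested. The log2 changes ran from -1.77 (LHCB2.3) to -0.55 (LHCB4.3), and 31 of the genes were lower by at least 2-fold. The share of all genes lower by that much was not counted. In the same 48 genes every WT latB library lay below every WT DMSO library, as in 27.9% of all genes tested. In WT latB leaves the 49 genes took up 17.5% ± 2.93 of all TPM, against 29.6% ± 1.3 in WT DMSO leaves (SD, n = 3 each). Replicate 3 of the WT latB group was the lowest of its group in all 49 genes. In such bulk tissue, fewer cells of a type and less RNA per cell cannot be told apart. The 4 leaf mesophyll markers, of which RBCS3B, RBCS1A and RCA also belong to carbon fixation, summed to 20103 to 29211 CPM in WT latB libraries and 52397 to 59006 CPM in WT DMSO libraries, and all 4 fell. All 5 tested epidermis markers fell too (sums of 155 to 266 CPM in WT latB and 346 to 490 CPM in WT DMSO), while 1 of 5 phloem markers (SWEET12) rose (sums of 253 to 297 CPM in WT latB and 189 to 246 CPM in WT DMSO). Of 5 guard cell markers KAT1 rose and 3 fell (sums of 79.7 to 100 CPM in WT latB and 32.4 to 40.9 CPM in WT DMSO), and 1 of 6 xylem markers fell (12.1 to 19.0 CPM in WT latB and 17.4 to 27.2 CPM in WT DMSO). With library size alone as the scale, all 4 mesophyll markers still fell, but 3 of 5 epidermis markers fell, all 5 phloem markers rose, 1 guard cell marker rose and 2 fell, and no xylem marker passed. With limma on log2(TPM + 1), 4 mesophyll and 2 epidermis markers fell and 5 phloem markers rose. Rises were also more frequent over all genes tested at these scales. With library size alone 6818 of 18149 rose and 2521 fell, and with limma 6960 of 17048 rose and 2380 fell. The part of cell composition in the lower levels was not tested. The size of the change depends on the scaling: with library size alone as the scale, the median of all genes was at 0.33 and that of the 49 at -0.73, with 49 below 0 and 47 that fell. With limma on log2(TPM + 1), 46 fell.

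**Figure D1:**
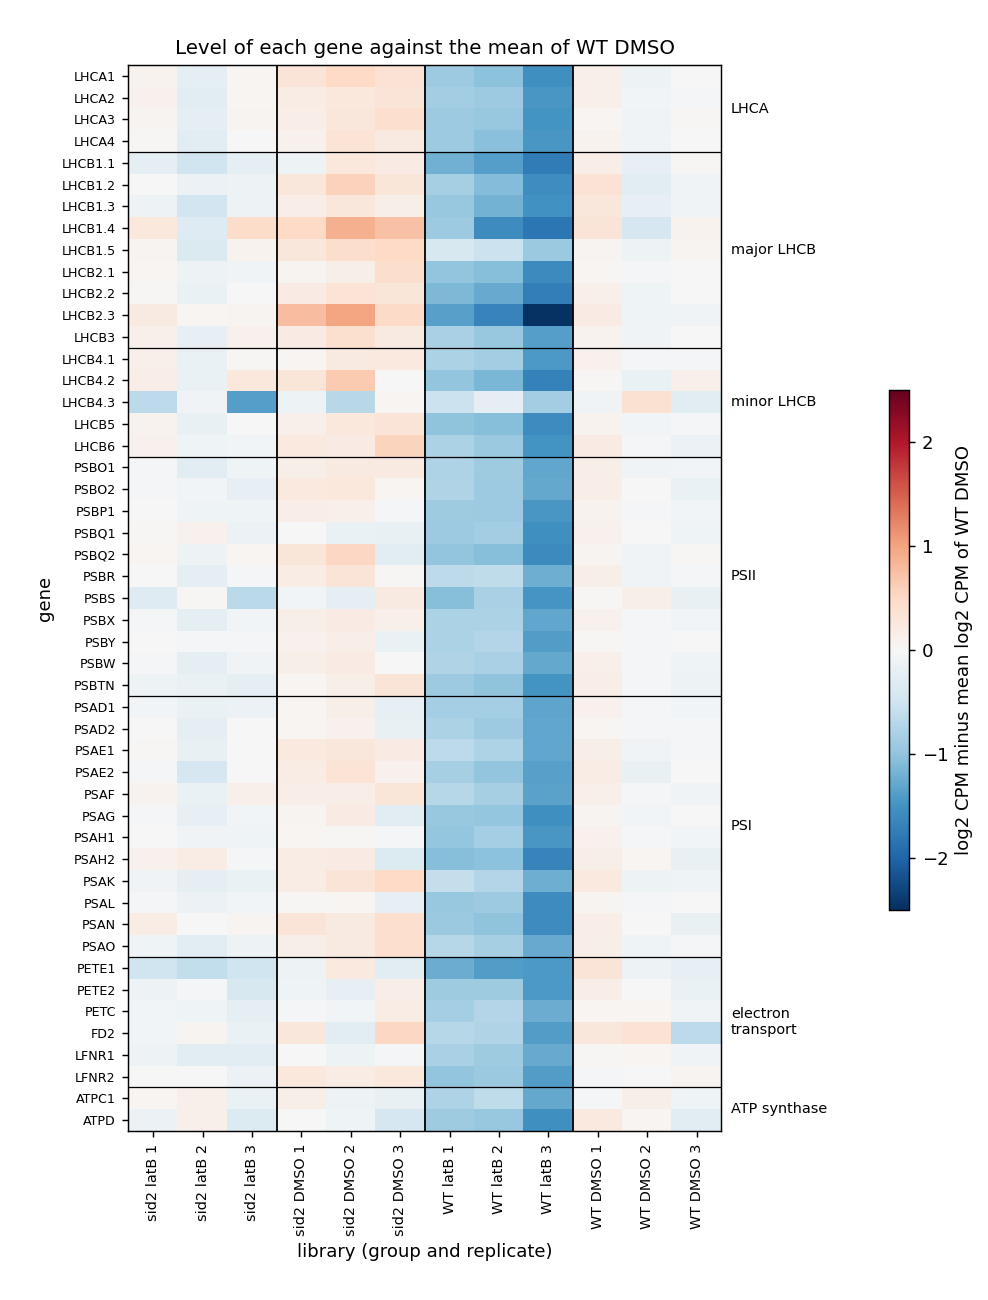
Level of each of the 49 genes (rows, grouped by role) in each of the 12 libraries (columns), as log2 CPM minus the mean log2 CPM of WT DMSO, with blue below and red above it. The 3 WT latB columns are blue in every row, palest at LHCB4.3 and LHCB1.5 and darkest at LHCB2.3 in replicate 3. The sid2 latB columns are mostly near white, with bluer cells in some libraries at genes such as LHCB4.3, PSBS, PETE1, LHCB1.1 and LHCB1.3. The sid2 DMSO columns lean to red in the antenna rows.

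The 4 listed LHCA genes (LHCA1 to LHCA4), which encode the main antenna of photosystem I, all fell in WT latB leaves, with log2 changes between -1.13 and -1.06. LHCA1 had 5182, 4765 and 3351 CPM in WT latB leaves and 10503, 8847 and 9738 CPM in WT DMSO leaves, a log2 fold change of -1.13 ± 0.17 (SE, 2.19-fold lower, adjusted p = 0.000131). LHCA2 changed least, with 4009, 3924 and 2687 CPM in WT latB leaves and 7982, 7002 and 7111 CPM in WT DMSO leaves (log2 -1.06 ± 0.17, SE, 2.08-fold lower, adjusted p = 0.000187). For both genes the highest WT latB library was well below the lowest WT DMSO library, and the 2 changes differed by less than their SEs.

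The 9 genes of the major photosystem II antenna, the trimers that hold much of the leaf's chlorophyll, all fell and varied most among themselves, from -1.77 to -0.61 on the log2 scale with a median of -1.21. LHCB2.3 (AT3G27690), the most divergent of the LHCB2 copies, had 1166, 946 and 540 CPM in WT latB leaves, against 3461, 2772 and 2832 CPM in WT DMSO leaves. Its change was the largest of the 49 (log2 -1.77 ± 0.23, SE, 3.42-fold lower, adjusted p = 3.92e-05). The WT latB libraries lay far below the WT DMSO libraries, with replicate 3 the lowest. LHCB1.1 had 7247, 6348 and 4940 CPM in WT latB leaves and 18725, 14473 and 16834 CPM in WT DMSO leaves, and was 2.70-fold lower (log2 -1.43 ± 0.18, SE, adjusted p = 2.70e-05). LHCB1.5 changed least of the 9, with 16136, 14801 and 11296 CPM in WT latB leaves against 22410, 19557 and 22424 CPM in WT DMSO leaves (log2 -0.61 ± 0.17, SE, 1.52-fold lower, adjusted p = 0.0104). The groups of LHCB1.5 did not overlap, but their ranges were much closer than those of LHCB1.1. LHCB2.2 had the smallest adjusted p of the 49 (1.64e-05), at 2446, 2232 and 1613 CPM in WT latB leaves and 5808, 4926 and 5249 CPM in WT DMSO leaves. LHCB2.1 was 2.28-fold lower, with 3284, 3108 and 2142 CPM in WT latB leaves and 6727, 6358 and 6415 CPM in WT DMSO leaves. LHCB1.3, the most abundant gene, was 2.31-fold lower (18786, 16158 and 12770 CPM in WT latB leaves, 44416, 31538 and 34472 CPM in WT DMSO leaves). All 3 were well separated between the treatments. LHCB1.2, LHCB1.4 and LHCB3 fell by 1.16, 1.41 and 1.02 on the log2 scale.

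The minor antenna proteins link the trimers to the photosystem II core, and 4 of their 5 genes fell. LHCB4.2 fell most, with 2476, 2216 and 1535 CPM in WT latB leaves and 5045, 4415 and 5357 CPM in WT DMSO leaves (log2 -1.25 ± 0.21, SE, 2.38-fold lower, adjusted p = 0.000234). LHCB4.1, its more abundant copy, had 3991, 3752 and 2542 CPM in WT latB leaves and 7425, 6618 and 6597 CPM in WT DMSO leaves, 2.01-fold lower. In both copies the treatments were separated. LHCB4.3 (AT2G40100) was the only one of the 49 that did not pass: it had 162, 200 and 129 CPM in WT latB leaves and 220, 305 and 194 CPM in WT DMSO leaves (log2 -0.55 ± 0.29, SE, adjusted p = 0.135). Its WT latB library of replicate 2 lay above the WT DMSO library of replicate 3, and its SE was the largest of the 49. LHCB5 was 2.29-fold and LHCB6 2.06-fold lower.

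All 11 genes of photosystem II subunits fell within a narrow range, -1.19 to -0.82 on the log2 scale with a median of -0.98. They include the oxygen-evolving subunits PSBO1, PSBO2, PSBP1, PSBQ1 and PSBQ2, which stabilise the manganese cluster that splits water, and PSBS, the sensor of lumen acidity in photoprotection. PSBQ2 fell most, with 1493, 1410 and 976 CPM in WT latB leaves and 3092, 2752 and 2994 CPM in WT DMSO leaves (log2 -1.19 ± 0.20, SE, 2.28-fold lower, adjusted p = 0.000269). PSBR, a subunit near the oxygen-evolving complex, fell least, with 3707, 3721 and 2504 CPM in WT latB leaves and 6412, 5459 and 5621 CPM in WT DMSO leaves (log2 -0.82 ± 0.17, SE, 1.76-fold lower, adjusted p = 0.00128). The treatments did not overlap in either gene. PSBS was 2.14-fold lower (adjusted p = 0.000622).

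All 12 photosystem I genes fell, by 0.84 to 1.23 on the log2 scale with a median change of -1.02. PSAH2, one of the subunits where LHCII docks during state transitions, fell most, with 640, 659 and 423 CPM in WT latB leaves and 1480, 1379 and 1182 CPM in WT DMSO leaves (log2 -1.23 ± 0.19, SE, 2.35-fold lower, adjusted p = 0.000146). PSAK, which lies on the antenna side of the complex, fell least, with 1818, 1651 and 1183 CPM in WT latB leaves and 3246, 2540 and 2545 CPM in WT DMSO leaves (log2 -0.84 ± 0.17, SE, 1.79-fold lower, adjusted p = 0.00113). Both genes were separated between the treatments. The ferredoxin-docking subunit genes PSAD1, PSAD2, PSAE1 and PSAE2 lay between them, at -0.99, -0.98, -0.88 and -1.04. PSAN, a lumenal subunit near the plastocyanin site, was at -1.15.

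Among the carriers, all 6 genes fell. PETE1, the minor plastocyanin gene, fell most, with 151, 135 and 131 CPM in WT latB leaves and 445, 327 and 307 CPM in WT DMSO leaves (log2 -1.37 ± 0.17, SE, 2.59-fold lower, adjusted p = 1.99e-05). PETC, the Rieske iron-sulphur protein of the cytochrome b6f complex, fell least, with 976, 1057 and 741 CPM in WT latB leaves and 1812, 1816 and 1663 CPM in WT DMSO leaves (log2 -0.93 ± 0.15, SE, 1.91-fold lower, adjusted p = 0.000162). The WT latB libraries were lower without overlap in both. The major plastocyanin gene PETE2 was at -1.06, the ferredoxin gene FD2 at -0.98 ± 0.27 and the ferredoxin-NADP reductase genes LFNR1 and LFNR2 at -0.98 and -1.09. FD2 had the widest SE of the 6, and its WT DMSO library of replicate 3 (1173 CPM) lay little above its highest WT latB library (1129 CPM).

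Both listed ATP synthase genes fell. ATPD, the delta subunit, had 695, 668 and 447 CPM in WT latB leaves and 1515, 1322 and 1060 CPM in WT DMSO leaves (log2 -1.11 ± 0.20, SE, 2.15-fold lower, adjusted p = 0.000454). ATPC1, the gamma subunit that couples rotation to catalysis, had 778, 857 and 549 CPM in WT latB leaves and 1298, 1469 and 1243 CPM in WT DMSO leaves (log2 -0.88 ± 0.17, SE, 1.84-fold lower, adjusted p = 0.000794). The treatments were again separated in both. Across the 49 genes the size of the response did not follow the level in WT DMSO leaves (Pearson's r = -0.07, Spearman's rho = 0.01 across genes, which share libraries and are not independent).

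**Figure D2:**
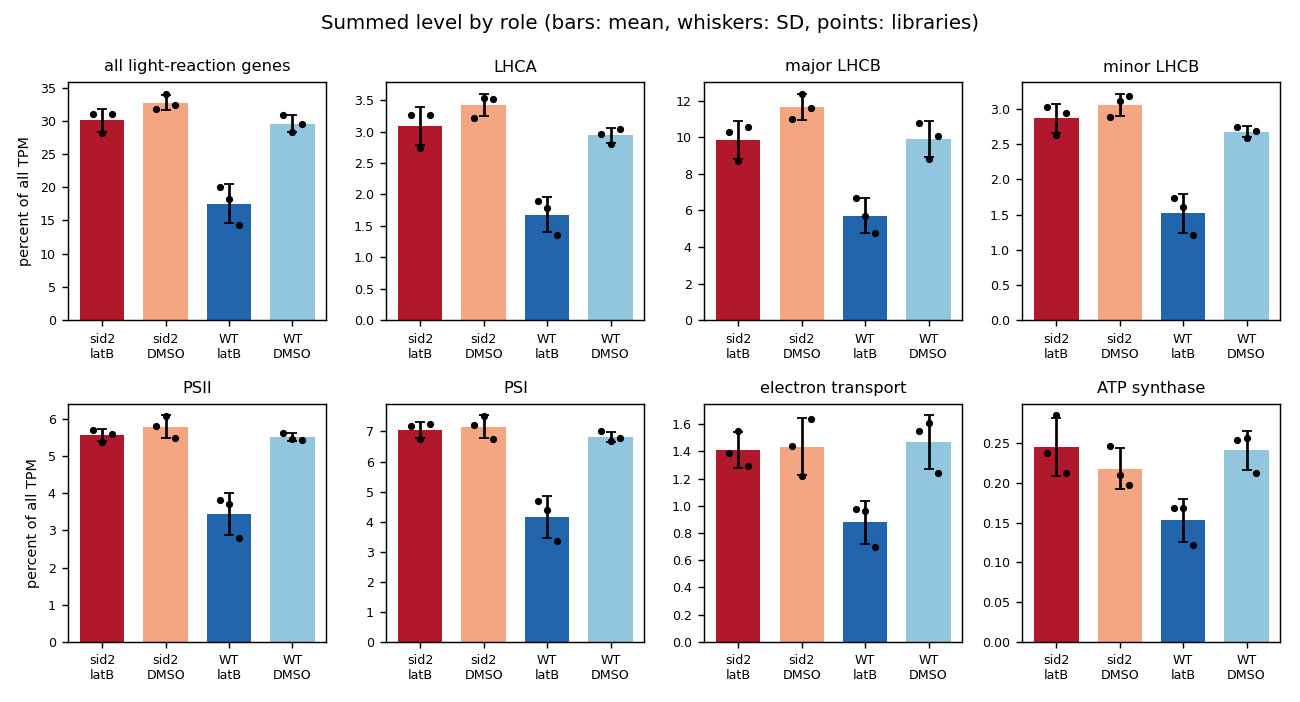
Percent of all TPM taken up by the 49 genes and by each role in each group (bars are means, whiskers SD, points the 3 libraries). The WT latB bar is the lowest in every panel, 17.5% against 28.1 to 34.1% in single libraries of the other 3 groups for all genes.

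The second comparison asks how much of this response was present in plants labelled sid2. None of the 49 genes passed in sid2 latB leaves against sid2 DMSO leaves in either direction, where 1.21% of all genes tested fell. An unadjusted p below 0.05 was found in 11 of the 49, and the share of all genes at that cut was not counted. DESeq2 called 2 lower, beside 517 of all 27313 genes. Without replicate 3 of the sid2 DMSO group 1 of the 49 fell, beside 463 of 18488 genes tested. Without replicate 3 of the WT latB group 3 of the 49 fell, beside 247 of 18407 genes tested. The cause was not tested. The median log2 change was -0.28 (1.21-fold lower), against -0.00 over all genes tested, and ran from -0.65 (LHCB2.3) to 0.11 (PSBQ1). For 47 of the genes the lower end of the 95% interval was above -1, so that a 2-fold lower level lay outside it. The 49 genes took up 30.1% ± 1.73 of all TPM in sid2 latB leaves and 32.8% ± 1.19 in sid2 DMSO leaves (SD, n = 3 each). Mesophyll markers summed to 46709 to 53694 CPM in sid2 latB libraries and 49682 to 60841 CPM in sid2 DMSO libraries, and none of the 4 passed. Phloem markers summed to 213 to 233 CPM in sid2 latB and 344 to 381 CPM in sid2 DMSO libraries, with 3 of 5 lower (SUC2, APL and SWEET12), and their part in these values was not tested. The direction of these small changes depends in part on the scaling: 45 of the 49 were below 0 here, against 39 with library size alone (median -0.13, all genes 0.14) and 33 with limma on log2(TPM + 1) (median -0.11, all genes 0.10).

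Though no gene passed, the values were not arranged alike in all roles. In 31 of the 49 genes every sid2 latB library lay below every sid2 DMSO library, as in 11.1% of all genes tested. These were all 4 LHCA and all 9 major LHCB genes, 2 of 5 minor LHCB, 6 of 11 photosystem II, 6 of 12 photosystem I and 4 of 6 electron transport genes, and neither ATP synthase gene. Such counts on TMM-scaled CPM depend on the scale. The summed TPM of the LHCA genes overlapped, at 32579, 27436 and 32624 in sid2 latB and 32244, 35430 and 35195 in sid2 DMSO libraries. That of the major LHCB genes did not (at most 106082 in sid2 latB and at least 109758 in sid2 DMSO libraries). Median log2 changes by role were -0.44 for the major LHCB, -0.31 for the LHCA, -0.27 for the minor LHCB and for photosystem II, -0.22 for electron transport, -0.16 for photosystem I and 0.06 for ATP synthase. No difference between roles was tested. LHCB2.3 had 3532, 3100 and 3154 CPM in sid2 latB leaves and 5103, 5992 and 4210 CPM in sid2 DMSO leaves (log2 -0.65 ± 0.23, SE, adjusted p = 0.122). PETE1, with the smallest adjusted p, had 250, 232 and 251 CPM in sid2 latB leaves and 325, 418 and 293 CPM in sid2 DMSO leaves (log2 -0.50 ± 0.16, SE, adjusted p = 0.0967). In both genes the sid2 latB libraries were close together and below all sid2 DMSO libraries. LHCA1 had 10249, 8132 and 10039 CPM in sid2 latB leaves and 12025, 13681 and 12402 CPM in sid2 DMSO leaves (log2 -0.42 ± 0.17, SE, adjusted p = 0.172). PSAK had 2593, 2337 and 2454 CPM in sid2 latB leaves and 3147, 3452 and 3892 CPM in sid2 DMSO leaves (log2 -0.51 ± 0.17, SE, adjusted p = 0.102). By contrast, the groups overlapped in the 4 genes whose value was above 0, namely PSBQ1, PSAH2, ATPC1 and ATPD. PSAH2 had 1437, 1531 and 1315 CPM in sid2 latB leaves and 1521, 1544 and 1053 CPM in sid2 DMSO leaves (log2 0.06 ± 0.19, SE, adjusted p = 0.904). ATPD had 1156, 1401 and 1016 CPM in sid2 latB leaves and 1294, 1186 and 962 CPM in sid2 DMSO leaves (log2 0.05 ± 0.20, SE, adjusted p = 0.912). In both, the sid2 DMSO library of replicate 3 was the low one. Without that library 48 of the 49 genes were below 0 and 1 was above, with a median of -0.25.

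**Figure D3:**
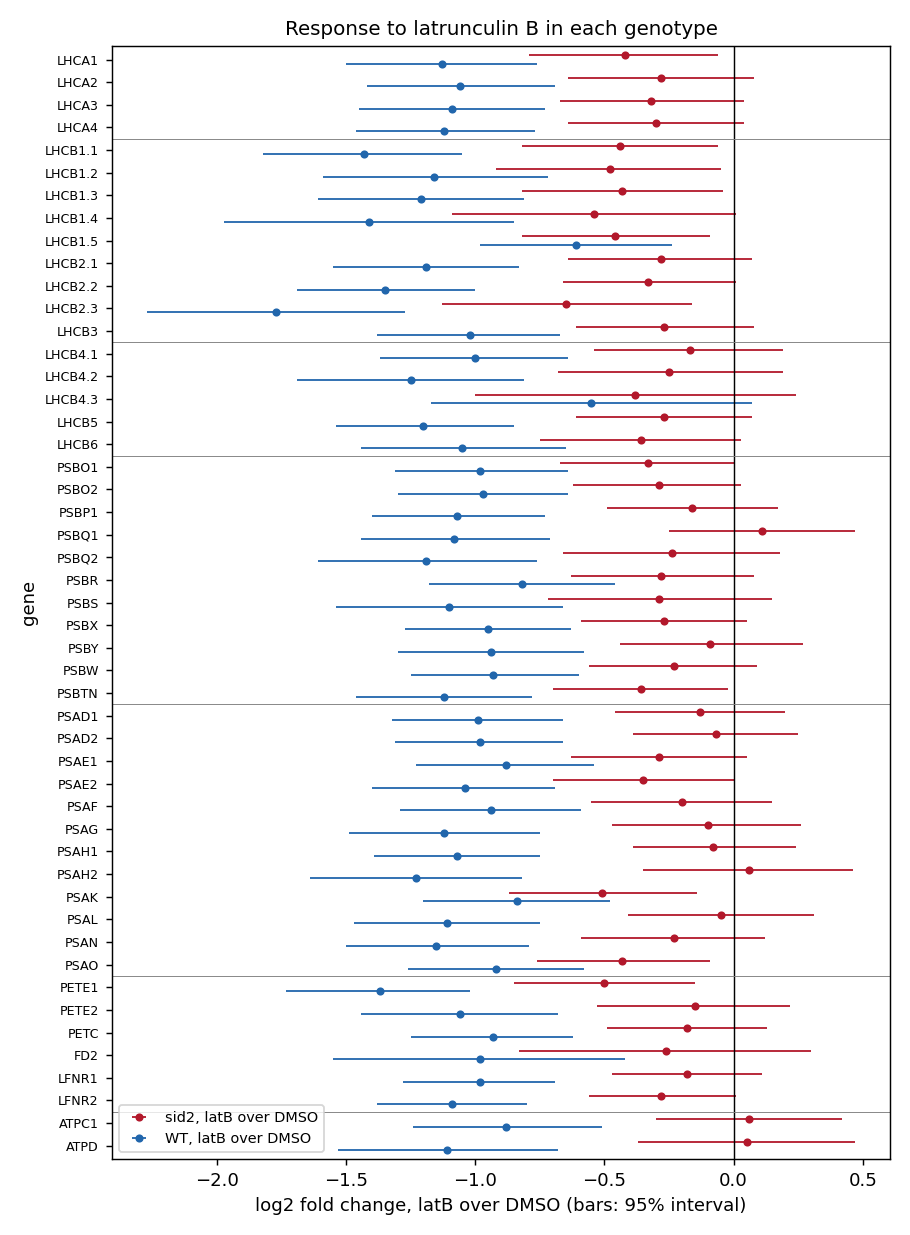
Log2 fold change of latB over DMSO for each of the 49 genes (rows, grouped by role) with 95% intervals, in sid2 (red) and in WT (blue). The WT points lie between -1.77 and -0.55 and the sid2 points between -0.65 and 0.11, and the 2 points of a gene come closest at LHCB1.5 and LHCB4.3.

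The difference between the 2 responses was tested directly as an interaction. In 38 of the 49 genes the log2 response was higher, that is less negative, in sid2-labelled leaves than in WT leaves, where 13.4% of all genes tested passed in that direction. None passed in the other direction, and the median difference was 0.81 (1.76-fold) against 0.02 over all genes. Its size depends on the scaling. With library size alone the median was 0.63 (all genes -0.17), with 47 of the 49 above 0 and 2 below. With limma on log2(TPM + 1) it was 0.69 (all genes -0.22), with 49 above 0. By role, 4 of 4 LHCA, 6 of 9 major LHCB, 3 of 5 minor LHCB, 9 of 11 photosystem II, 9 of 12 photosystem I, 5 of 6 electron transport and 2 of 2 ATP synthase genes passed. The largest difference was that of PSAH2 at 1.29 ± 0.27 (SE, adjusted p = 0.00390), followed by PSBQ1 at 1.19 ± 0.24 (SE, adjusted p = 0.00316), which had 2359, 2507 and 2096 CPM in sid2 latB leaves, 2336, 2066 and 2044 CPM in sid2 DMSO leaves, 1237, 1262 and 798 CPM in WT latB leaves and 2488, 2334 and 2137 CPM in WT DMSO leaves. In PSBQ1 the WT latB libraries were thus the low ones and the other 9 lay close together. ATPD differed by 1.16 ± 0.28 (SE, adjusted p = 0.00868), LHCB2.3 by 1.13 ± 0.32 (SE, adjusted p = 0.0211) and PSAL, which like PSAH lies at the LHCII docking side, by 1.06 ± 0.24 (SE, adjusted p = 0.00592). At the other end, LHCB1.5 differed by 0.15 ± 0.24 (SE, adjusted p = 0.685), LHCB4.3 by 0.17 ± 0.41 (SE, adjusted p = 0.795) and PSAK by 0.33 ± 0.24 (SE, adjusted p = 0.334). For LHCB1.5 the value in sid2 was -0.46, with 22384, 16709 and 22872 CPM in sid2 latB leaves and 26029, 28881 and 30060 CPM in sid2 DMSO leaves, close to its -0.61 in WT. The other genes that did not pass were LHCB1.2, LHCB1.4, LHCB6, PSBR, PSBS, PSAE1, PSAO and FD2, with differences of 0.49 to 0.86. The count is sensitive to single libraries: it was 22 without the first sid2 latB library, 23 without the first WT DMSO library and 25 without the first sid2 DMSO library. Over all genes tested 1978 of 18473, 2013 of 18477 and 1966 of 18457 passed in that direction in the same fits, in that order. With all libraries 2436 of 18149 did. The count was 32 without replicate 3 of the sid2 DMSO group, beside 2580 of 18488 genes tested.

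The third comparison sets the genotypes side by side within each treatment. In sid2 DMSO leaves against WT DMSO leaves 1 of the 49 genes rose, LHCB2.3, with 5103, 5992 and 4210 CPM in sid2 DMSO leaves and 3461, 2772 and 2832 CPM in WT DMSO leaves (log2 0.76 ± 0.23, SE, 1.69-fold higher, adjusted p = 0.0481), where 4.46% of all genes tested rose. This single call was lost with RLE scaling (log2 0.75), with limma on log2(TPM + 1) (log2 0.70) and in 9 of 12 fits without a library, where its log2 value ran from 0.62 to 0.88 over the 12. The median of the 49 was 0.18 against 0.01 over all genes tested, with 39 above 0 and 10 below. With library size alone it was 0.10 (all genes -0.08), with 33 above 0 and 16 below. With limma on log2(TPM + 1) it was 0.13 (all genes -0.03), with 34 above 0 and 15 below. In 18 genes every sid2 DMSO library lay above every WT DMSO library, as in 13.1% of all genes tested, including all 4 LHCA and 6 of 9 major LHCB genes but 1 of 11 photosystem II and 4 of 12 photosystem I genes. The sid2 DMSO libraries also enter the response in sid2, so the higher antenna values here and the lower ones there are not independent. Between the latB groups, 48 genes were higher in sid2 latB leaves than in WT latB leaves, where 22.1% of all genes tested were higher, with a median log2 difference of 0.98 (1.97-fold). In 48 genes every sid2 latB library lay above every WT latB library, as in 28.8% of all genes tested. LHCB2.3 differed most, at 1.88 ± 0.23 (SE, adjusted p = 2.80e-05), and LHCB4.3 did not pass (-0.08 ± 0.29, SE, adjusted p = 0.838).

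In 3 families the share of reads that a copy supplied differed between WT latB and WT DMSO libraries without overlap for some copies, though no share could pass a test. LHCB1.5 supplied 31, 33 and 32.5% of all LHCB1 reads in WT latB leaves, against 20.7, 24.5 and 24.5% in WT DMSO leaves. The share of LHCB1.1 was 14.1% ± 0.155 in WT latB leaves and 17.9% ± 0.594 in WT DMSO leaves, and that of LHCB1.3 was 36.3% ± 0.408 in WT latB leaves and 39.4% ± 1.64 in WT DMSO leaves (SD, n = 3 each). Within LHCB2, the share of LHCB2.3 was 14.8% ± 2.17 in WT latB leaves and 20.3% ± 1.16 in WT DMSO leaves, and that of LHCB2.1 was 49% ± 1.2 in WT latB leaves and 43.8% ± 1.63 in WT DMSO leaves (SD, n = 3 each). Within LHCB4, LHCB4.2 had 36.6% ± 0.717 of reads in WT latB leaves and 40.9% ± 2.77 in WT DMSO leaves, and LHCB4.1 had 60.5% ± 0.308 in WT latB leaves and 57.1% ± 2.39 in WT DMSO leaves (SD, n = 3 each). In these 7 of 18 shares the WT libraries did not overlap between treatments. The shares within a family add up to the whole, so the 7 are not independent of one another. Copies of other gene families were not counted. With 3 libraries against 3 the exact two-sided permutation test cannot go below p = 0.1, which these 7 reached, and the p adjusted over the shares of both genotypes was 0.450. In sid2-labelled leaves 1 of 18 shares did not overlap, that of LHCB2.2 (35.2% ± 1.13 in sid2 latB and 33.8% ± 0.209 in sid2 DMSO leaves, SD, n = 3 each). LHCB1.5 had 24.8% ± 0.889 of LHCB1 reads in sid2 latB leaves and 24.9% ± 1.34 in sid2 DMSO leaves. The difference between the genotypes in these shares was not tested. The pairs PSBO, PSBQ, PSAD, PSAE, PSAH, PETE and LFNR overlapped between treatments in both genotypes. When the copies of each protein were summed, all 34 resulting units fell in WT latB leaves.

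**Figure D4:**
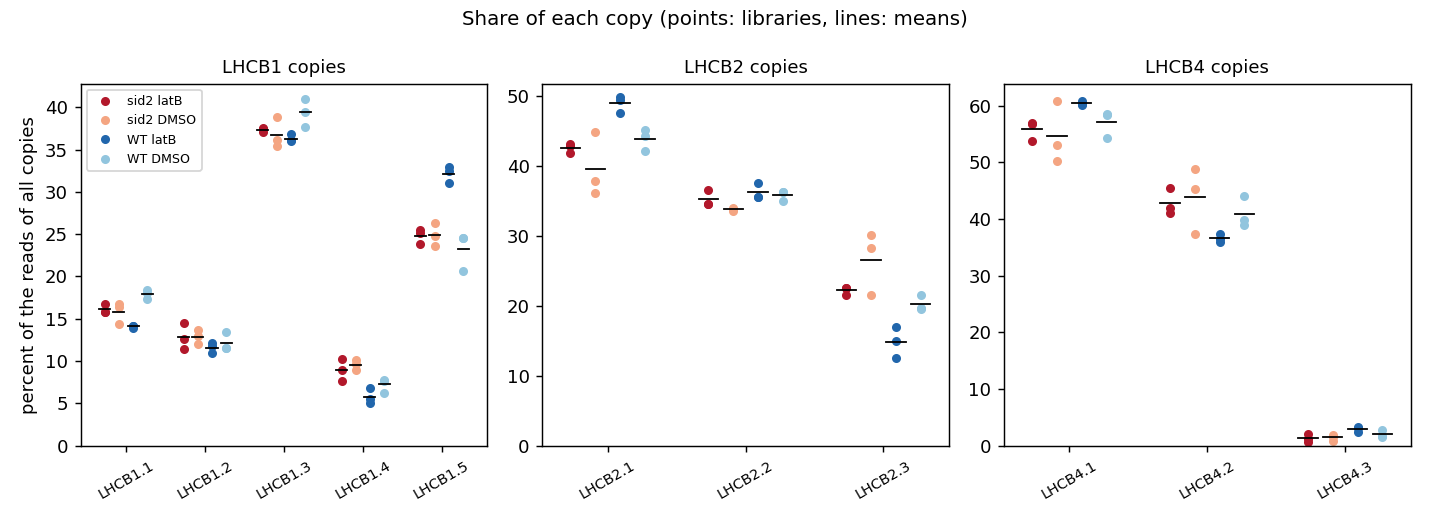
Percent of the reads of all copies that each LHCB1, LHCB2 and LHCB4 copy supplied, in each of the 12 libraries (points, with lines at group means). LHCB1.5 stands out in WT latB leaves at 31 to 33%, above all libraries of WT DMSO leaves, while its sid2 latB and sid2 DMSO points overlap.

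Most of the 49 genes had 1 annotated transcript in the files, and 3 of the 11 with several had a second transcript above 5% of their reads on average over the 12 libraries. The most variable was LHCA3, whose second transcript lacks 206 coding bases at the 5′ end of the first, begins with 41 bases that the first splices out and shares the other 616 bases with it, so that its estimate rests on the 5′ end. Its share of LHCA3 reads was 11.8, 3.4 and 9.78% in sid2 latB leaves and 22, 20.6 and 39.6% in sid2 DMSO leaves. In WT the order was the opposite, with 33, 28.9 and 35.5% in WT latB leaves and 22, 13.8 and 9.77% in WT DMSO leaves. Treatments did not overlap in either genotype, and no test was run. The second transcript of LFNR1 had 39.5, 32.1 and 35.9% of its reads in sid2 latB leaves and 46.8, 45.3 and 63.8% in sid2 DMSO leaves, without overlap, and 49.4, 44.5 and 52.9% in WT latB leaves and 48.7, 40.3 and 42% in WT DMSO leaves, with overlap. That of PSAN lay between 29.2 and 36.2% in every library. A second transcript of PETC had 14.9, 0 and 17.7% of its reads in WT latB libraries and 0 in the other 9.

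Most other nuclear genes of the same machinery also fell in WT latB leaves, where 22.7% of all genes tested fell and 22.1% rose. Of 21 further light-reaction genes (further antenna, photosystem, ferredoxin and ATP synthase genes, and genes of cyclic electron flow, kinases, a phosphatase and photoprotection) 17 fell and none rose, with a median log2 change of -0.94; STN8, a kinase of photosystem II core proteins, was 2.84-fold lower. All 11 nuclear genes of the NDH complex, which runs cyclic electron flow around photosystem I, fell (median -1.07). Of 7 genes that deliver LHC proteins to the thylakoid or help assemble them, 6 fell (median -1.10), among them the signal recognition particle gene CPSRP54 (log2 -1.67) and the insertase gene ALB3 (adjusted p = 2.73e-05). Of 22 chlorophyll synthesis genes 20 fell (median -1.12), among them CHLM, a Mg-protoporphyrin methyltransferase (log2 -1.58), and PORB, a protochlorophyllide reductase (log2 -2.27). Of 19 Rubisco and Calvin cycle genes 18 fell (median -0.91). In contrast, of 4 ELIP and OHP genes, which are stress-linked relatives of the LHC family, OHP and OHP2 fell and ELIP1 rose (log2 1.61, adjusted p = 0.0283). The ELIP1 call was lost without WT latB replicate 2, WT DMSO replicate 1 or WT DMSO replicate 3 (log2 1.13, 1.28 and 1.68). ELIP1 was low, at 4.22, 9.89 and 4.84 CPM in WT latB leaves and 0.946, 2.92 and 2.27 CPM in WT DMSO leaves. Of 16 light-reaction genes encoded in the chloroplast 3 fell in WT, a share near the 22.7% of all genes, including atpA (ATCG00120, log2 -1.04, adjusted p = 0.00195), and the median of the 16 was 0.01. In sid2-labelled leaves their median was -0.36 (from -1.13 to -0.06) with none called, and the median difference between the responses was -0.36. The response of 2 of the 16 was called higher in sid2, a share near the 13.4% of all genes tested. This count was 1 with RLE scaling and 0 with library size alone. With library size alone 4 of the 16 were called lower, where 2975 of 18149 genes tested were. In sid2-labelled leaves 1 further light-reaction gene and 1 NDH gene fell (NdhO, log2 -0.64, adjusted p = 0.0358, not passing at -0.50 with library size alone, nor without any one of 6 libraries), and none of the carbon fixation, chlorophyll or LHC delivery genes passed. Over all genes tested 1.21% fell there. DESeq2 called 6 further light-reaction genes, 2 NDH genes and 1 chlorophyll synthesis gene lower, beside 517 of all 27313 genes. With library size alone as the scale, 3 of the 21 further light-reaction genes, 1 of 7 LHC delivery genes and 3 of 16 chloroplast genes rose in WT. At that scale 14, 5 and 1 of them fell. Of 18149 genes tested, 6818 rose and 2521 fell there.

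Of 18 genes that regulate photosynthetic transcription, 10 fell and 2 rose in WT latB leaves (median -0.61), beside 22.7% and 22.1% of all genes tested. With library size alone 7 fell and 2 rose (median -0.27), where 2521 of 18149 genes tested fell and 6818 rose. With limma on log2(TPM + 1) 7 fell and 2 rose (median -0.23), where 2380 of 17048 genes tested fell and 6960 rose. GLK1 and GLK2 are transcription factors known to activate antenna and chlorophyll genes. GLK2 had 114, 111 and 85.9 CPM in WT latB leaves and 209, 239 and 225 CPM in WT DMSO leaves (log2 -1.12 ± 0.14, SE, 2.17-fold lower, adjusted p = 2.64e-05). It had 209, 193 and 188 CPM in sid2 latB leaves and 279, 276 and 223 CPM in sid2 DMSO leaves (log2 -0.40 ± 0.14, SE, adjusted p = 0.115), but fell by 0.50 on the log2 scale without sid2 DMSO replicate 3 (adjusted p = 0.0481). The difference between the GLK2 responses passed (0.72, adjusted p = 0.0169), but not with library size alone (0.53, adjusted p = 0.0501) or limma on log2(TPM + 1) (0.46, adjusted p = 0.0885). The WT latB libraries of GLK2 were thus the lowest of the 12. GLK1 had 233, 167 and 155 CPM in WT latB leaves and 212, 211 and 211 CPM in WT DMSO leaves, did not pass there (log2 -0.19 ± 0.15, SE, adjusted p = 0.327) and was at 0.14 with library size alone. Without WT latB replicate 1 GLK1 passed (log2 -0.40, adjusted p = 0.0388). LHY, a morning clock factor, went the other way: it had 49.6, 52.6 and 47.7 CPM in WT latB leaves and 21.4, 30.9 and 26.5 CPM in WT DMSO leaves (log2 0.93 ± 0.18, SE, 1.90-fold higher, adjusted p = 0.000740), and 33.1, 34.2 and 26.5 CPM in sid2 latB leaves and 51.6, 33.4 and 39.6 CPM in sid2 DMSO leaves, where it did not pass (log2 -0.41, adjusted p = 0.202). The LHY responses differed by -1.34 ± 0.25 (SE, adjusted p = 0.00211). Its partner CCA1, known to bind an LHCB1 promoter, had 83.2, 74.0 and 60.2 CPM in WT latB leaves and 64.7, 76.2 and 77.0 CPM in WT DMSO leaves and did not pass (adjusted p = 0.991). HY5, a light-signalling bZIP factor, was low throughout, with 2.15 to 4.02 CPM in WT latB leaves and at most 3.08 CPM in WT DMSO leaves (adjusted p = 0.523). SIG2, a nuclear-encoded sigma factor of the chloroplast RNA polymerase, had a log2 change of -1.31 (adjusted p = 2.43e-06), and SIG4 of -1.06. SIG4 also passed in sid2-labelled leaves, where it fell by 0.48 on the log2 scale (adjusted p = 0.0339), but not with library size alone (log2 -0.34, adjusted p = 0.103) or without any one of 6 libraries (WT DMSO replicate 2, and each sid2 library other than sid2 DMSO replicate 3). The NdhO call was lost without the same 6.

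**Figure D5:**
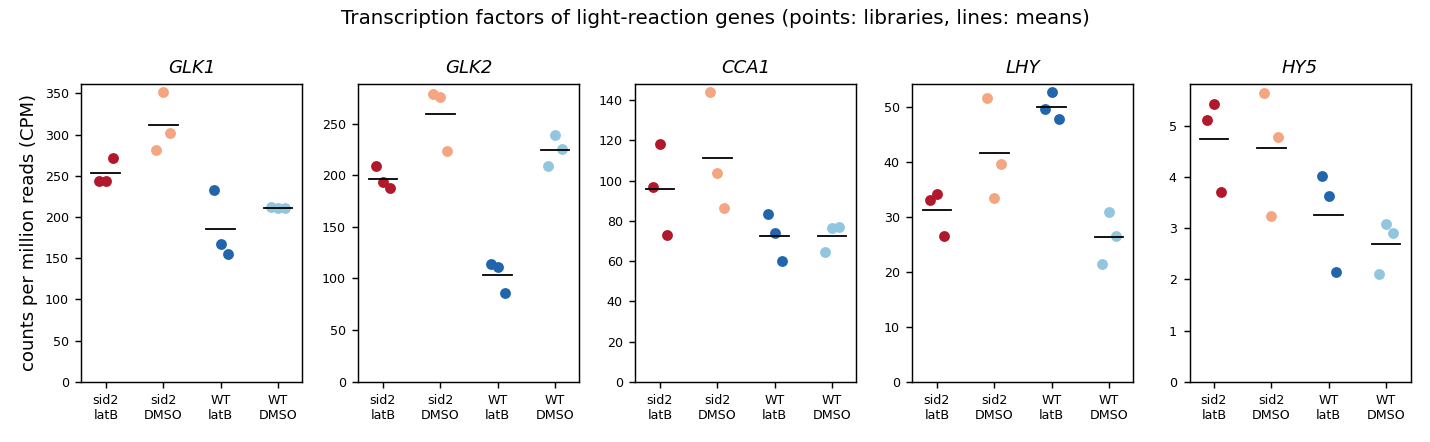
CPM of 5 transcription factors in each library (points, with lines at group means). GLK2 is lowest in the WT latB libraries (85.9 to 114 CPM), LHY is higher in WT latB than in WT DMSO libraries (47.7 to 52.6 against 21.4 to 30.9 CPM), and GLK1, CCA1 and HY5 overlap between the WT treatments.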

How the data were processed

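The estimated counts (reads per transcript) and TPM of 12 libraries were made by the authors with Salmon 1.3.0 after trimming with Trimmomatic, against TAIR10, per the submitters' processing notes; the trimming settings are not given in the sources used here. The deposited TPM values scale reads by effective length. Of the 63 transcripts of the light-reaction genes, 62 had the annotated coding length, so reads from outside the coding part were not counted for them. Salmon divides reads of near-identical copies by an estimation model. The library kit is directional, per the labels.

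Estimated counts were summed per locus, rounded, filtered (filterByExpr) and tested in edgeR 4.0.16 (R 4.3.3) with TMM scaling, a mean per group of 3 and the quasi-likelihood test, over 18149 genes. The common biological coefficient of variation was 0.211. Intervals are 95%. The method was tested on simulated data. Alternatives were limma 3.58.1 on log2(TPM + 1) or log2(TPM + 0.1) with at least 1 TPM in 3 libraries, DESeq2 1.42.0, other scalings, summed copies, organelle genes left out, and each library left out. Values in every library are given for the genes with the largest and smallest change in WT in each role and for copies whose shares did not overlap; of other lists, up to 3 genes with the smallest adjusted p in WT are named, and 5 transcription factors always. NdhO, the second PETC transcript, SUC2, APL, SWEET12, KAT1, PSAL and the library values of LHCB2.2 in WT, PSBQ1, FD2 and ELIP1 were chosen after their values were seen. Members, lists and motifs were chosen with earlier results of these data known.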

Additional observations from a re-analysis of the deposited data

Results flagged for a closer look

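A closer look is warranted at the genes whose response to latB differed between the genotypes, by edgeR's quasi-likelihood test of the interaction with Benjamini-Hochberg adjustment. There were 38 of them among the 49, all with a higher response in sid2, where 13.4% of all genes tested passed in that direction. The calls depend on the processing and on single libraries. Of 1029 single-gene interaction values under other settings, 125 lost the call and 23 gained it. The values below are differences of log2 responses, sid2-labelled leaves minus WT leaves, so a positive value means a less negative response in sid2.

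In the photosystem I antenna the difference was 0.71 for LHCA1, 0.78 for LHCA2, 0.77 for LHCA3 and 0.82 for LHCA4. In the major antenna it was 1.00 for LHCB1.1, 0.78 for LHCB1.3, 0.91 for LHCB2.1, 1.02 for LHCB2.2, 1.13 for LHCB2.3 and 0.76 for LHCB3. Reads of LHCB1.1 and LHCB1.3, and of LHCB2.1 and LHCB2.2, are divided between near-identical copies. In the minor antenna it was 0.83 for LHCB4.1, 1.00 for LHCB4.2 and 0.93 for LHCB5.

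In photosystem II, the oxygen-evolving subunit genes differed by 0.64 (PSBO1), 0.68 (PSBO2), 0.91 (PSBP1), 1.19 (PSBQ1) and 0.95 (PSBQ2). The small subunit genes differed by 0.67 (PSBX), 0.86 (PSBY), 0.69 (PSBW) and 0.76 (PSBTN). In photosystem I, the stromal subunit genes differed by 0.86 (PSAD1), 0.92 (PSAD2) and 0.69 (PSAE2), and the others by 0.74 (PSAF), 1.02 (PSAG), 0.99 (PSAH1), 1.29 (PSAH2), 1.06 (PSAL) and 0.91 (PSAN). PSAH2 had the largest difference and PSBO1 the smallest of the 38.

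Among the carriers the difference was 0.87 for PETE1, 0.91 for PETE2, 0.75 for PETC, 0.80 for LFNR1 and 0.81 for LFNR2. In ATP synthase it was 0.93 for ATPC1 and 1.16 for ATPD.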

How the results depend on the processing

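In WT, 46 to 49 of the 49 genes fell under the scalings, tools and left-out libraries tried (46 with each limma setting on TPM), all 34 units fell with copies summed, and 31 genes were lower by at least 2-fold. In sid2-labelled leaves no gene passed in edgeR and 2 fell by DESeq2, beside 517 of all 27313 genes. Leaving out single libraries gave 0 to 3. The count was 1 without sid2 DMSO replicate 3, where 463 of 18488 genes tested fell. It was 3 without WT latB replicate 3, where 247 of 18407 did. Leaving out single libraries gave 22 to 41 genes with a higher response in sid2, against 38 with all, and 8 differed by at least 2-fold. In these fits 1943 to 2580 of all genes tested passed in that direction. The median difference of the 49 was 0.81, and it was 0.63 with library size alone and 0.69 with limma on log2(TPM + 1). The rise of LHCB2.3 in sid2 DMSO against WT DMSO leaves gave a count of 1; this was 0 with RLE scaling, 0 with each of the 3 limma settings, 0 with copies summed, where LHCB2.3 is no unit of its own, 0 at 2-fold or more and 2 with DESeq2. It was 0 to 1 with single libraries left out, and was kept without sid2 DMSO replicate 3, WT latB replicate 1 or WT latB replicate 3. Between the latB groups 23 genes were higher by at least 2-fold in sid2, against 48 that passed. For none of these comparisons was the share of all genes at 2-fold or more counted. No called value changed sign. Of single-gene interaction values 881 of 1029 stayed on their side of the threshold, 125 lost the call and 23 gained it, and the cause was not tested. Fitting only the libraries of a comparison gave no value of its own for the interaction. No paired analysis was possible because the labels give the groups no shared replicate numbers. Each of the 49 genes had at least 1667 estimated reads in every library. With 3 libraries per group no copy share can reach an exact p below 0.1. What limits the calls of single genes was not tested.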
